A study of Homo sapiens with 18 samples.

Results

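The signal recognition particle (SRP) carries ribosomes that are starting to make a secreted or membrane protein to the endoplasmic reticulum (ER). The 8 genes described here encode its 6 protein subunits, SRP9, SRP14, SRP19, SRP54, SRP68 and SRP72, and both subunits of its receptor, SRPR and SRPRB. They were chosen by function, as the rows with these symbols among the 25435 rows of the deposited table of gene counts. SRPR is the symbol the table uses for the alpha subunit, now named SRPRA.

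The particle is an RNA, 7SL, with its proteins wrapped around it. SRP54 binds the signal sequence as it leaves the ribosome, SRP9 and SRP14 hold the end of the particle that slows translation, and the receptor on the ER membrane accepts the complex and passes the ribosome to the SEC61 channel. SRP54, SRPR and SRPRB are GTPases, and the pairing of SRP54 with SRPR drives release of the signal sequence at the membrane. Cells that secrete much protein rely on this route, and the unfolded protein response, through the transcription factor XBP1, is known to raise many genes of ER protein import.

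The data were RNA-Seq of HEK293doxERN2 cells, a HEK293 human embryonic kidney line that carries a FLAG-tagged ERN2 transgene switched on by doxycycline. ERN2 is the epithelial paralog of the ER stress sensor ERN1. The groups No ERN2, Low ERN2 and High ERN2 had 0, 10 and 100 ng/mL doxycycline for 24 hours. At each dose, control cells had DMSO and stress cells had 200 nM thapsigargin, which empties the ER of calcium and causes ER stress, for 3 hours, with 3 libraries in each of the 6 groups. All 18 libraries came from the line with the transgene, so doxycycline and ERN2 cannot be told apart, and whether the line is a single clone is not given in the sources used here. The comparisons ask how induced ERN2 and thapsigargin each changed the mRNA of these genes, and whether ERN2 altered the response to thapsigargin.

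Library totals ran from 14876416 to 24652240 counts. ERN2 averaged 7.92 ± 1.30, 35.7 ± 18.4 and 266 ± 36.1 CPM (read counts relative to the TMM-adjusted total of each library; mean ± SD, n = 3) in the No, Low and High ERN2 control cells, so the libraries followed their labels, although reads of the transgene and of the native gene cannot be told apart. In the No, Low and High ERN2 stressed cells ERN2 averaged 12.4 ± 1.98, 66.05 ± 40.8 and 201 ± 57.3 CPM. Single libraries ran from 32.3 to 111 CPM in Low ERN2, stress. In High ERN2, stress they ran from 167 to 268, with replicate 1 highest. The stress marker DDIT3 rose with thapsigargin in No ERN2 cells by 3.96 on the log2 scale (SE 0.13, adjusted p = 6.1e-10). The 5 HEK293 markers summed to between 2043 and 3515 CPM in every library and the 9 colon and goblet cell markers to between 3.80 and 9.81, with TFF3 and CLCA1 at 0 counts in all 18. Of the 9, CDX2 was highest, with group means from 3.99 to 7.20 CPM. High ERN2, stress replicates 2 and 3 stood apart from the other libraries on the first principal component, at 75.9 and 61.9 against 31.1 for the next highest, replicate 1 of the same group. Within groups, libraries also differed in how their counts ran with the GC content of transcripts (Pearson r of each library's deviation from its group mean with GC content between -0.61 and 0.67, over 13115 genes), and SRP9 has one of the AT-rich transcripts at 35.7% GC where the median was 49.3%.

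Regulatory letters of the unfolded protein response were searched in the promoters because genes of ER import are among the known targets of XBP1. Windows of 300 bases around the start site were read on both strands from the RefSeq promoter table (GRCh38.p14), which held 7 of the 8 genes, all but SRPR. The motif TGACGTGG, the core of the unfolded protein response element that XBP1 binds, was found in the SRP19 window, on the reverse strand with its first base 112 bases before the start site, and in 0.73% of all 34943 windows. CCACG, which overlaps it and is the shared end of the ER stress elements, was found in the windows of SRP9, SRP19, SRP68, SRP72 and SRPRB and in 38.1% of all windows. The longer ERSE (CCAAT, 9 bases of any kind, CCACG) and ERSE-II (ATTGG, any base, CCACG) were found in no window of these genes and in 0.0773% and 0.0544% of all. Letters found are a description and no evidence of binding. The stretches around the motif are shown in the direction of each gene, with the motif in capitals, so that the letters of SRP19 can be read beside those of the other genes that hold CCACG.
SRP19, chr5:112861150-112861207, plus strand: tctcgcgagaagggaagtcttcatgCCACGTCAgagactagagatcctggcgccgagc
SRP68, chr17:76072694-76072748, minus strand: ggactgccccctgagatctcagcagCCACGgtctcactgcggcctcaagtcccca
SRP9, chr1:225777601-225777655, plus strand: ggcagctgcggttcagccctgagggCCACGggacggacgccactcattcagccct
SRP72, chr4:56467449-56467503, plus strand: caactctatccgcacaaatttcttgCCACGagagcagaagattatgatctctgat
SRPRB, chr3:133805783-133805814, plus strand: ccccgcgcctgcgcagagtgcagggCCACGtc
Only the SRP19 line carries the 3 further letters that complete TGACGTGG on the other strand. The SRPRB line stops at the start site, within these 3 letters, and the search of its whole window did not find TGACGTGG. A further CCACG of SRPRB, past the start site, is not shown.

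In GENCODE release 29 (GRCh38), SRP9 lies at chr1:225777813-225790466, SRP14 at chr15:40035739-40039188, SRP19 at chr5:112861188-112898371 and SRP54 at chr14:34981957-35029567. SRP68 lies at chr17:76038775-76072653, SRP72 at chr4:56467336-56503681, SRPR at chr11:126262919-126269144 and SRPRB at chr3:133784033-133825772. Some counts may be shared with neighbours. Exons of SRP19 overlap AC008575.1 and ZRSR2P1 on the same strand and REEP5 on the other, those of SRPRB overlap TF on the same strand and RAB6B and AC080128.2 on the other, and those of SRPR overlap FOXRED1 and FAM118B on the other strand. The kit marked strand, but the sources used here do not say whether the counting used it. The antisense gene SRP14-AS1 has a row of its own, at 2.76 ± 0.42 CPM in No ERN2, control against 192 ± 8.59 for SRP14.

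Every one of the 8 genes was well covered, with 558 to 7575 counts per library, and all 8 passed the filter on low counts in every comparison. Per kilobase of the principal transcript, SRP14 had the highest mean level over the 18 libraries, 163 CPM per kb, followed by SRP68 at 93.3, SRPR at 75.3 and SRP9 at 47.0. SRP54 averaged 43.6 CPM per kb, SRP72 35.6 and SRP19 34.8, and SRPRB was lowest at 19.0. The range of SRP14 (123 to 217 CPM per kb) lay above that of SRP68 (64.3 to 118), while the ranges of each later pair of neighbours overlapped. The length used changed the place of SRP68 and the low end of the order in No ERN2, control. There SRP68 had 67.9 CPM per kb of principal transcript, above SRP9 at 60.9, and 23.6 per kb of all annotated exons, below SRP9 at 52.2. The SRP9 libraries of that group ran from 39.4 to 103 CPM per kb of principal transcript. SRPRB was lowest there per kb of principal transcript, at 15.0 against 24.3 for SRP19. Per kb of all annotated exons SRP19 was lowest, at 6.56 against 10.2 for SRPRB. SRP14 was highest there by both lengths, at 178 and 95.5 CPM per kb. 

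The effect of induced ERN2 alone was read at a threshold of an adjusted p under 0.01. In High against No ERN2 control cells, 1 of 8 genes was called, SRP68, which was higher. Of the 14444 genes tested 8.33% were called, 121 higher and 1082 lower. An unadjusted p under 0.05 was found for 4 of the 8 and for 4237 of all genes. The 3 values of each group did not overlap for 4 of the 8 (SRP19, SRP68, SRPR and SRPRB, all higher), where 33.1% of all genes were separated in either direction. Low against No ERN2 control cells gave 0 calls of 8 with edgeR, where 0.193% of all genes were called. At an unadjusted p under 0.05 there were 4 of the 8 and 4421 of all 14497 genes, and DESeq2 called 1 of the 8 and 378 of 19842. SRP68, SRPR and SRPRB were separated there, all higher, against 29.8% of all genes. Between High and Low ERN2 control cells edgeR called 0 of 8 against 2.45% of all genes, with 2 of the 8 and 2344 of 14549 genes at an unadjusted p under 0.05, and DESeq2 also called 0 of 8. SRP19 was separated higher and SRPR lower there, against 21.1% of all genes separated. These comparisons share groups and are not independent of each other.

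Thapsigargin without ERN2 called 2 of 8 genes, SRP19 higher and SRP14 lower, against 11.2% of 14397 genes tested. Of the 8, 6 were separated, SRP19, SRP68, SRPR and SRPRB higher and SRP9 and SRP14 lower, against 40% of all genes. In Low ERN2 cells edgeR called 0 of 8 with thapsigargin, against 1.45% of all genes. At an unadjusted p under 0.05 there were 2 of the 8 and 3602 of 14607 genes, and DESeq2 called 1 of the 8 and 1039 of 19868. SRP19 (higher), SRP9 and SRP14 (lower) were separated, against 28.3%. In High ERN2 cells edgeR called 0 of 8, against 0.201% of all genes. There 4 of the 8 and 3892 of 14427 genes had an unadjusted p under 0.05, and DESeq2 called 1 of the 8 and 728 of 19818. There SRP19 was separated higher, and SRPR and SRPRB lower, against 25.9%.

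Among stressed cells, 2 of 8 genes were called in High against No ERN2, SRP9 and SRP14, both higher, against 10.5% of 14358 genes tested. These were also separated, as were SRPR and SRPRB (lower), against 35.6% of all genes. Between Low and No ERN2, edgeR called 0 of 8 and 0% of 14509 genes, with 0 and 612 at an unadjusted p under 0.05, and DESeq2 called 0 of 8 and 39 genes. SRP9 was separated higher, against 9.88% of all genes. All 8 values were above 0 in the fit without pairing. In this comparison libraries of the same number deviated together, and a fit with the number as a block called 564 genes of all tested and still 0 of the 8. With that block, 4 of the 8 had an unadjusted p under 0.05. A correction for GC content added to the block, chosen after seeing the data, gave 7 of the 8. It called 284 of all genes and 0 of the 8. Shares of all genes at the unadjusted threshold were not counted for these paired fits. For the difference between the responses to thapsigargin, edgeR called 0 of 8 and 0.0406% of 14768 genes in High against No ERN2. At an unadjusted p under 0.05 there were 6 of the 8 and 3651 of all genes, and DESeq2 called 3 of 8 and 341 of 20663 genes. For Low against No ERN2 it called 0 of 8 and 0% of all genes, with 1 of the 8 and 664 of 14857 genes at an unadjusted p under 0.05, and DESeq2 called 0 of 8. With 3 libraries in a group, an exact permutation test of a single gene cannot go below p = 0.10.

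**Figure D1:**
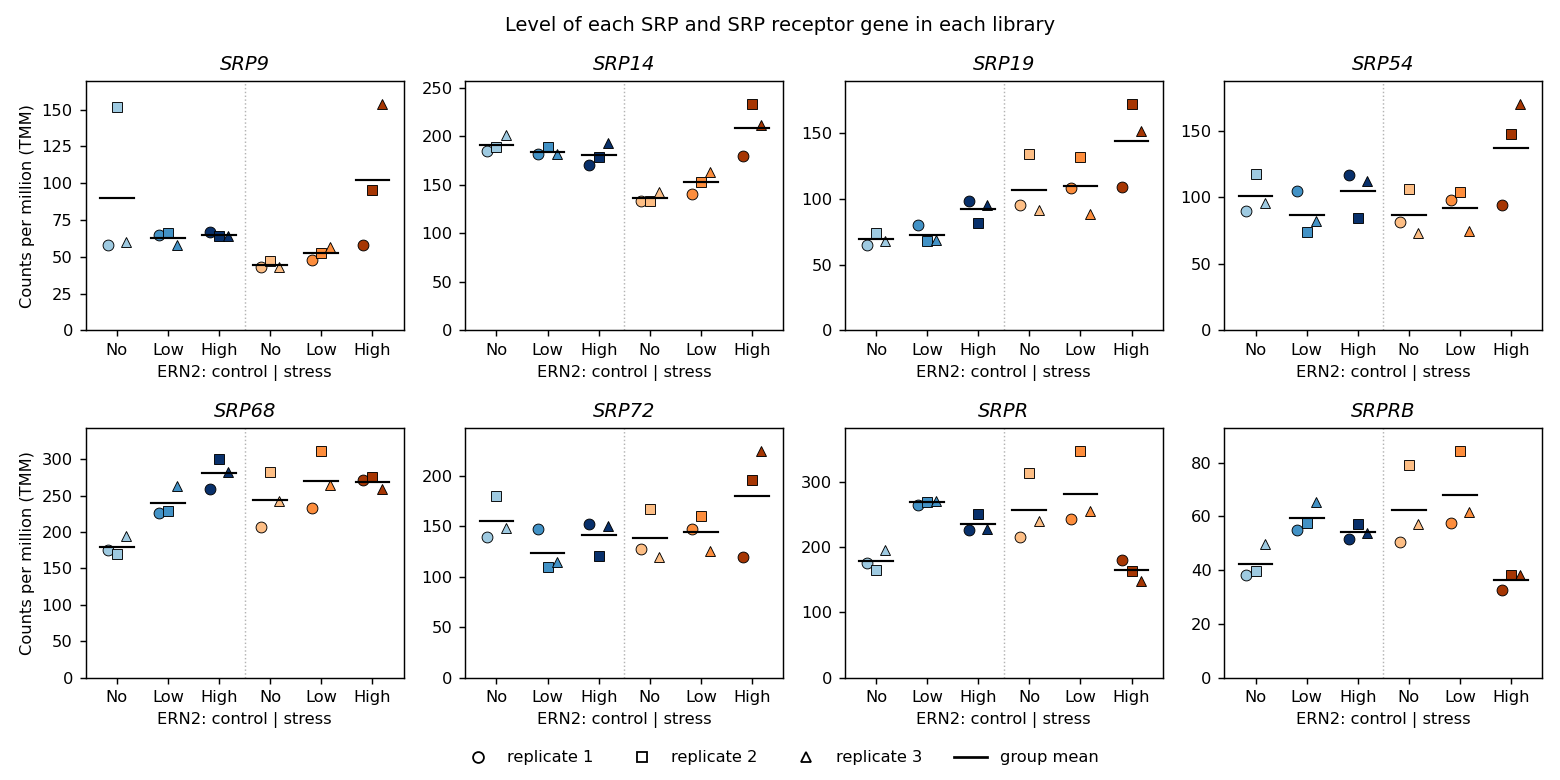
Level of each gene in each of the 18 libraries, in TMM-scaled CPM on a linear axis from 0, with the 3 control groups left and the 3 stress groups right of the dotted line. Points are libraries, with a shape for each replicate number, and lines are group means. SRPR and SRPRB lie lowest in High ERN2, stress among the stress groups, while SRP9 has single high libraries at 152 and 154 CPM.

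SRP9 and SRP14 form the pair that binds the Alu end of the RNA and slows elongation. SRP14 had 185, 189 and 201 CPM in No ERN2, control and 133, 134 and 142 in No ERN2, stress. All 3 stressed libraries lay below all 3 control libraries, and SRP14 fell by 0.48 on the log2 scale with thapsigargin (SE 0.10, adjusted p = 0.0038), a 1.39-fold decrease. The call was lost in 4 of the 6 fits that left out 1 library, with adjusted p up to 0.0243 without control replicate 3. In High ERN2 cells SRP14 had 171, 178 and 193 CPM in control and 179.6, 234 and 212 in stress libraries, which overlap. SRP14 was 0.68 higher on the log2 scale in High than in No ERN2 stressed cells (SE 0.14, adjusted p = 0.0053), 1.60-fold. That call held without High ERN2, stress replicate 1 and was lost without any other library, with adjusted p up to 0.0466.

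SRP9 had 58.3, 152 and 60.4 CPM in No ERN2, control and 43.1, 47.5 and 42.9 in No ERN2, stress. Replicate 2 of the control group stood far above the others of its group, and the stressed libraries lay below all of the controls. The log2 fold change with thapsigargin was -1.01 (SE 0.28, adjusted p = 0.0218), and -0.40 (adjusted p = 0.0393) without that replicate. In High ERN2, stress SRP9 had 57.8, 95.1 and 154 CPM, all above the No ERN2, stress libraries, and it was 1.26 higher on the log2 scale (SE 0.27, adjusted p = 0.0060), 2.40-fold. Here too the call held only without High ERN2, stress replicate 1, and the other fits gave adjusted p of 0.0145 to 0.0293. Replicates 2 and 3, which carry the high values, are the libraries that stood apart. With High ERN2, stress represented by replicate 1 alone, an alternative chosen after seeing the data, the value was 0.40 for SRP9 and 0.42 for SRP14. The spread then comes from the other groups alone, so only the size of these values is given. A correction for GC content, also chosen after seeing the data, gave 0.80 for SRP9 (adjusted p = 0.00079) and 0.55 for SRP14 (adjusted p = 0.0014).

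SRP19 helps fold the RNA of the S domain so that SRP54 can join. It had 64.9, 74.2 and 68.0 CPM in No ERN2, control and 95.0, 134 and 91.1 in No ERN2, stress. The groups did not overlap, and SRP19 rose with thapsigargin by 0.64 on the log2 scale (SE 0.14, adjusted p = 0.0070), 1.56-fold. In Low ERN2 cells it had 79.6, 68.2 and 69.0 CPM in control and 108, 131 and 88.3 in stress libraries, a log2 fold change of 0.60 (SE 0.15, adjusted p = 0.0404). In High ERN2 cells it had 98.4, 81.7 and 95.4 CPM in control and 109, 172 and 151 in stress libraries, a log2 fold change of 0.70 (SE 0.18, adjusted p = 0.0618). SRP19 was thus the only one of the 8 genes whose stressed libraries lay above the controls at all 3 doses. The share of all genes separated in this way at every dose was not counted. The values of 172 and 151 CPM belong to High ERN2, stress replicates 2 and 3, the libraries that stood apart. Over the alternatives other than leaving out 1 library, the High ERN2 value ran from 0.28 to 0.70. The difference between the responses at 100 and 0 ng/mL was 0.14 (SE 0.26, interval of 2 SE from -0.38 to 0.66). Without thapsigargin, High ERN2 exceeded No ERN2 by 0.41 (SE 0.11, adjusted p = 0.0303). The call in No ERN2 cells was lost without control replicate 1 (adjusted p = 0.0376), control replicate 3 (0.0229) or stress replicate 2 (0.0272).

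SRP68 joins with SRP72 to make the largest protein part of the S domain. It had 175, 170.5 and 194 CPM in No ERN2, control, 227, 229 and 264 in Low ERN2, control, and 259, 301 and 283 in High ERN2, control. Both induced groups lay above the uninduced one, while Low and High overlapped. SRP68 rose in High ERN2 by 0.64 on the log2 scale (SE 0.10, adjusted p = 0.00094), 1.56-fold, and the value in Low ERN2 was 0.42 (SE 0.11, adjusted p = 0.0767). The call in High ERN2 held in each of the 6 fits that left out 1 library. In No ERN2, stress SRP68 had 206, 282 and 242 CPM, also above the controls (log2 fold change 0.45, SE 0.12, adjusted p = 0.0184). The stressed High ERN2 libraries, at 272, 275 and 259 CPM, overlapped their controls, with a log2 fold change of -0.02 (SE 0.12, adjusted p = 0.936).

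SRP72, the partner of SRP68, did not share this pattern in its values. It had 139, 180.5 and 148 CPM in No ERN2, control and 153, 121 and 150 in High ERN2, control, a log2 fold change of -0.14 (SE 0.13, adjusted p = 0.489). SRP54, the signal sequence binding GTPase, had 89.6, 118 and 95.4 CPM in No ERN2, control and 117, 84.6 and 112 in High ERN2, control, a log2 fold change of 0.05 (SE 0.14, adjusted p = 0.842). The groups overlapped for both genes in each of the 8 comparisons of 2 groups. Their values were highest in High ERN2, stress replicates 2 and 3, at 147 and 170.3 CPM for SRP54 and 196 and 225 CPM for SRP72, against 94.4 and 119.7 CPM in replicate 1. Between High and No ERN2 stressed cells the log2 fold change was 0.72 for SRP54 (SE 0.22, adjusted p = 0.0355) and 0.44 for SRP72 (SE 0.22, adjusted p = 0.174).

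SRPR, the receptor subunit that docks with SRP54, had 176, 165 and 196 CPM in No ERN2, control, 265, 269 and 272 in Low ERN2, control, and 227, 251 and 228 in High ERN2, control. The 3 groups were separated from each other, with Low ERN2 highest. The log2 fold change against No ERN2 was 0.59 in Low (SE 0.10, adjusted p = 0.0176) and 0.40 in High ERN2 (SE 0.11, adjusted p = 0.0233), and -0.18 between High and Low (SE 0.09, adjusted p = 0.379). SRPRB, which anchors SRPR in the membrane, had 38.1, 39.6 and 49.6 CPM in No ERN2, 54.9, 57.6 and 65.1 in Low ERN2 and 51.4, 57.0 and 53.7 in High ERN2 controls. Both induced groups lay above the uninduced one, with log2 fold changes of 0.48 (SE 0.13, adjusted p = 0.0788) and 0.35 (SE 0.13, adjusted p = 0.0948). None of these values passed the threshold. DESeq2 called SRPR in both comparisons (adjusted p = 5.2e-05 in Low and 0.0065 in High ERN2). SRP68 and SRPR belong to a list of XBP1-linked genes, and SRP19 and SRPR to a list of secretory genes, that the study drew from these same samples, so their direction at 100 ng/mL is not independent evidence.

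Under thapsigargin the receptor genes had opposite signs at the ends of the dose range. SRPR had 216, 314 and 240.5 CPM in No ERN2, stress, 243, 348 and 256 in Low ERN2, stress, and 181, 164 and 148 in High ERN2, stress. SRPRB had 50.4, 79.0 and 57.2 CPM in No ERN2, stress, 57.4, 84.4 and 61.7 in Low ERN2, stress, and 32.7, 38.0 and 38.1 in High ERN2, stress. In No ERN2 cells every stressed library lay above every control for both genes, and in High ERN2 cells every stressed library lay below every control.

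The log2 fold change with thapsigargin in No ERN2 cells was 0.54 for SRPR (SE 0.14, adjusted p = 0.0130) and 0.56 for SRPRB (SE 0.17, adjusted p = 0.0270). In Low ERN2 cells it was 0.08 (SE 0.14, adjusted p = 0.770) and 0.20 (SE 0.16, adjusted p = 0.464), and in High ERN2 cells -0.47 (SE 0.12, adjusted p = 0.0641) and -0.53 (SE 0.14, adjusted p = 0.0677). The means of the High ERN2 stressed libraries, 164 ± 16.3 CPM for SRPR and 36.3 ± 3.11 for SRPRB, stood beside 179 ± 15.4 and 42.4 ± 6.27 in the No ERN2 controls. Between High and No ERN2 stressed cells the log2 fold change was -0.58 for SRPR (SE 0.16, adjusted p = 0.0240) and -0.72 for SRPRB (SE 0.19, adjusted p = 0.0182), with adjusted p of 0.0087 and 0.0028 after the GC correction. The difference between the responses in High and No ERN2 cells was -0.92 for SRPR (SE 0.19, interval of 2 SE from -1.31 to -0.54, adjusted p = 0.0353) and -1.01 for SRPRB (SE 0.23, interval from -1.48 to -0.54, adjusted p = 0.0562), above the threshold of 0.01. With DESeq2 both passed (adjusted p = 0.00037 and 0.0012), as they did with the GC correction (-0.88, adjusted p = 0.0058, and -1.08, adjusted p = 0.0057). Of the 12 edgeR fits that left out 1 library, 1 called each gene, the fit without High ERN2, stress replicate 1. The highest adjusted p in these fits was 0.106 for SRPR and 0.131 for SRPRB. With High ERN2, stress represented by replicate 1 alone the values were -0.84 and -1.22.

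**Figure D2:**
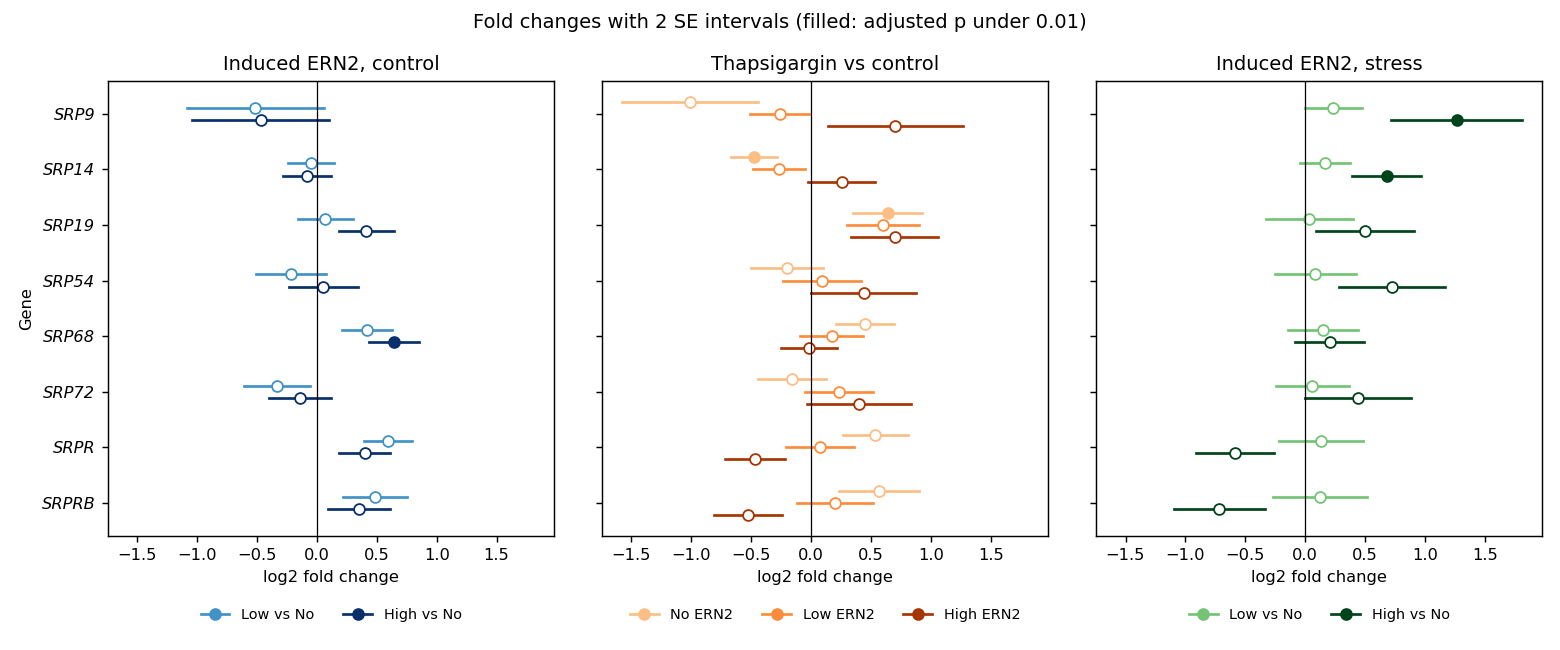
Log2 fold change of each gene in High and Low against No ERN2 control cells (left), with thapsigargin at each dose (middle) and in High and Low against No ERN2 stressed cells (right). Points are edgeR estimates, lines reach 2 SE to each side, and filled points have an adjusted p under 0.01. In the middle panel SRPR moves from 0.54 in No ERN2 to -0.47 in High ERN2 cells, while SRP19 stays between 0.60 and 0.70.

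SRP14 and SRP9 had differences of the opposite sign to the receptor. The response to thapsigargin in High ERN2 cells minus that in No ERN2 cells was 0.82 for SRP14 (SE 0.16, adjusted p = 0.0313) and 1.80 for SRP9 (SE 0.49, adjusted p = 0.0782). The SRP9 value was 1.15 without No ERN2, control replicate 2 and 0.90 with High ERN2, stress replicate 1 alone. The difference was 0.72 for SRP54 (SE 0.31, adjusted p = 0.167), 0.64 for SRP72 (SE 0.30, adjusted p = 0.203) and -0.38 for SRP68 (SE 0.16, adjusted p = 0.171). The median over the 8 genes was 0.39, beside 0.04 over all genes tested. In Low against No ERN2 cells the differences ran from -0.45 for SRPR to 0.76 for SRP9, with adjusted p of 0.779 or more.

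**Figure D3:**
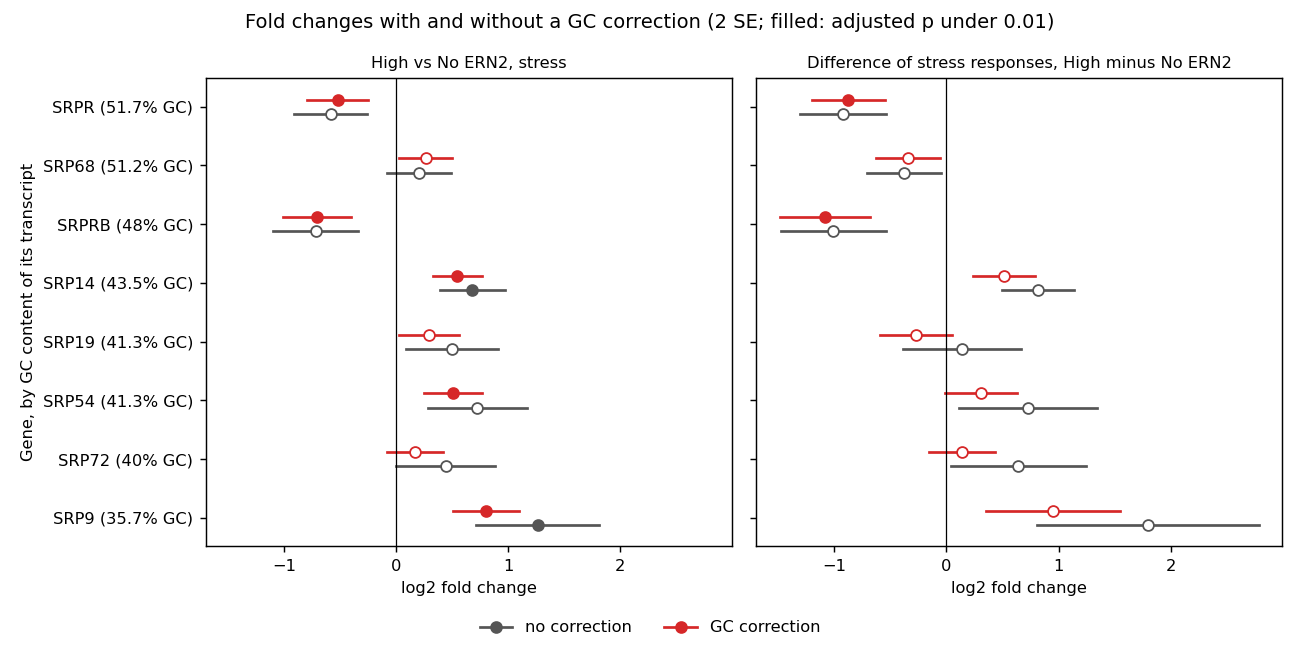
Log2 fold change in High against No ERN2 stressed cells (left) and of the difference between the thapsigargin responses of High and No ERN2 cells (right), without and with a correction of each library for GC content. Genes are ordered by the GC content of the principal transcript, lines reach 2 SE to each side, and filled points have an adjusted p under 0.01. On the right the value of SRP9 goes from 1.80 to 0.95 and that of SRPR from -0.92 to -0.88.

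The receptor subunits kept close to each other across the series. Over the 18 libraries the log2 CPM of SRPR and SRPRB had a Pearson r of 0.95, and the deviations of the libraries from their group means had an r of 0.81. There were between 3.89 and 5.53 SRPR counts for each SRPRB count in a library. The closest pair in deviations from group means was SRP54 with SRP72 (r = 0.98), 2 genes with transcripts of 41.3% and 40% GC, followed by SRP68 with SRPRB (r = 0.90), at 51.2% and 48% GC. SRP68 and SRP72, which are bound to each other in the particle, had an r of -0.01 in log2 CPM and of 0.04 in deviations. These libraries share depth and base composition effects, whose part in the correlations was not tested.

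**Figure D4:**
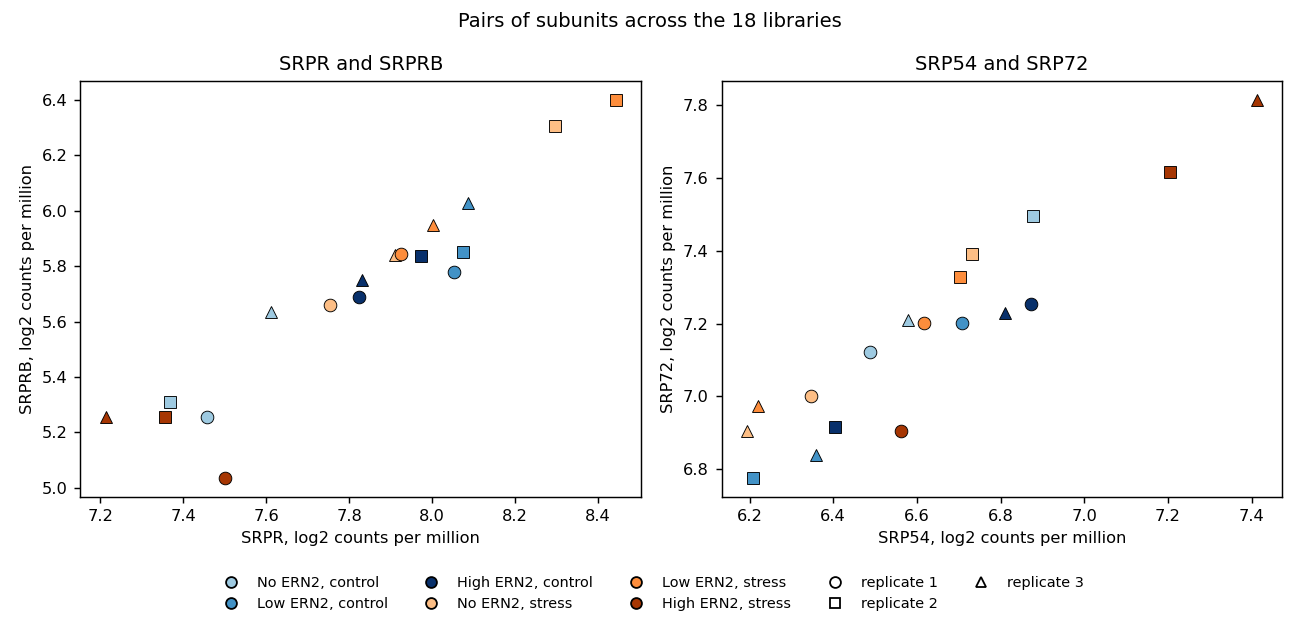
Log2 CPM of SRPR against SRPRB (left) and of SRP54 against SRP72 (right) in the 18 libraries, coloured by group and with a shape for each replicate number. The 3 High ERN2, stress libraries sit with the No ERN2 controls at the low end of the receptor pair, and 2 of them sit at the high end of the SRP54 and SRP72 pair.

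The genes whose log2 CPM ran most like the mean of the 6 particle genes over the 18 libraries were RAB1A (r = 0.97), MRPS35 (r = 0.95) and FAM91A1 (r = 0.95), among 15015 genes. The particle genes did not share a single pattern, with r from -0.19 for SRP9 with SRP68 to 0.93 for SRP54 with SRP72. Those most like the mean of both receptor genes were DPAGT1 (r = 0.96), the first enzyme of N-glycan assembly in the ER, SLC39A7 (r = 0.95), a zinc transporter of the ER, and QPCTL (r = 0.92). The part of GC content and of the libraries that stood apart in these r was not tested.

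Downstream of the receptor, the ribosome is handed to the SEC61 channel and its helpers. Of 12 such genes, induced ERN2 alone raised 4 in High ERN2 cells and lowered 1, where 121 of 14444 genes were called higher and 1082 lower, with a median log2 fold change of 0.18 beside -0.01 over all genes tested. SSR2, a subunit of the translocon-associated complex, rose from 149.7 ± 10.1 to 306 ± 44.8 CPM (log2 fold change 1.03, SE 0.12, adjusted p = 7e-05), and it rose by as much in Low ERN2 cells (1.02, SE 0.10, adjusted p = 0.0042). SEC61B and SEC61A1, subunits of the channel, rose by 0.97 and 0.80 (adjusted p = 8.9e-05 and 0.00021), and SEC63, which assists import with the chaperone HSPA5, fell by 0.63 (adjusted p = 0.0059). SEC61G was the fourth gene raised (0.77, adjusted p = 0.0014).

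With thapsigargin in No ERN2 cells, edgeR called 0 of these 12, against 11.2% of 14397 genes. At an unadjusted p under 0.05 there were 2 of the 12 and 5173 of all genes. The values ran from -0.62 for SEC61G (adjusted p = 0.0176) to 0.55 for SEC61A1 (adjusted p = 0.0268). In stressed cells, High against No ERN2 raised 2 of the 12, SEC61G (2.00, SE 0.34, adjusted p = 0.0013) and SEC61B (0.80, SE 0.17, adjusted p = 0.0055), where 220 of 14358 genes were called higher and 1292 lower. SEC61G had 21.7, 68.6 and 47.5 CPM in the High ERN2, stress libraries, highest in replicates 2 and 3, which stood apart, and 12.3, 14.2 and 9.46 in No ERN2, stress. The difference between the thapsigargin responses of High and No ERN2 cells was -1.05 for SEC61A1 (SE 0.23, adjusted p = 0.0485), near the values of SRPR and SRPRB, and 1.29 for SEC61G (SE 0.43, adjusted p = 0.104). SEC61A1 averaged 389 ± 113 CPM in No ERN2, stress and 303 ± 25.3 in High ERN2, stress, against 268 ± 18.4 and 467 ± 48.7 in the matching controls. XBP1 averaged 488 ± 14.7 CPM in No ERN2, stress and 209 ± 13.8 in High ERN2, stress, against 78.1 ± 1.22 and 159 ± 9.86 in the matching controls. The difference between responses for XBP1 was -2.14 (SE 0.13, adjusted p = 1.2e-06). Whether XBP1 acted on the genes above in these cells was not tested. The counts do not separate spliced from unspliced XBP1 mRNA. In bulk RNA a change in all cells cannot be told apart from one in some cells, nor fewer expressing cells from less RNA per cell.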

How the data were processed

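RNA-Seq libraries were made with a stranded mRNA kit and sequenced as single reads. The authors used STAR, run through VIPER, and deposited the raw counts of reads per gene symbol in a table with a column for each of 18 libraries. The submitters' processing notes name the build hg38, STAR and DESeq2, and the aligner version, annotation and strand setting are not given in the sources used here. The column of each library came from its label, and no column was left unused (0).

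The quasi-likelihood test of edgeR 4.0.16 (R 4.3.3, limma 3.58.1) was run after TMM scaling on the genes that filterByExpr passed (count minimum 10). Only the groups compared entered a fit, p-values were adjusted over all genes tested by Benjamini-Hochberg, and the threshold was 0.01 as in the study. Each SE was derived from the log2 fold change and F. Differences between thapsigargin responses were interactions over 12 libraries. Printed CPM are scaled by TMM, and log2 CPM used a prior count of 2. The tests were checked on simulated counts. Nothing says that replicates are separate cultures, so p-values measure the spread between these libraries, which may be technical. Replicates differed beyond sampling noise (chi-square per degree of freedom 6.99 to 60.2 over 18 pairs).

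Same-numbered libraries had r above 0.1 in each pair in Low against No ERN2 stressed cells (r = 0.40, 0.34 and 0.47). No other comparison had r above 0.1 in every pair. The numbers were therefore taken to pair libraries only in Low against No ERN2 stressed cells. The alternatives were DESeq2 1.42.0, RLE size factors, library totals, all genes unfiltered, 1 fit over the 6 groups together, a replicate block and each library left out. A GC correction (a smooth trend with span 0.3 for each library, from GENCODE release 29, for 87.3% of genes kept), its combination with the block, and High ERN2, stress represented by replicate 1 alone (that library assumed to vary like the other groups) were chosen after seeing the data.

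The 8 genes and all lists were chosen with earlier results of these data known. All 8 genes are named in every comparison. Of the partner lists, those with the smallest and largest changes in High against No ERN2 control cells and with thapsigargin in No ERN2 cells are named. Genes named beyond this rule, such as SEC61B, were chosen after their values were seen. Rows for the SRP RNA genes RN7SL1 and RN7SL2 were not analysed here (0 matched). Figures used matplotlib 3.10.9.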

Additional observations from a re-analysis of the deposited data

How the results depend on the processing

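The number of the 8 genes past the threshold depended on the setting. Low against No ERN2 control cells had 0, and 1 with DESeq2, 1 with no filter, 1 with the GC correction and 0 to 4 without 1 library. In High against No ERN2 control cells it was 1, and 3 with DESeq2, 2 with library totals, 3 with the GC correction and 1 to 2 without 1 library. With thapsigargin in No ERN2 cells it was 2, and 5 with DESeq2, 4 with library totals, 6 with no filter, 1 with all 6 groups, 4 with the GC correction and 0 to 4 without 1 library. In Low ERN2 cells it was 0, and 1 with DESeq2 and 0 to 1 without 1 library. In High ERN2 cells it was 0, and 1 with DESeq2, 2 with the GC correction and 0 to 5 without 1 library. In High against No ERN2 stressed cells it was 2, and 5 with DESeq2, 4 with library totals, 5 with no filter, 4 with all 6 groups, 5 with the GC correction, 0 with High ERN2, stress replicate 1 alone and 0 to 7 without 1 library. For the difference between the responses of High and No ERN2 cells it was 0, and 3 with DESeq2, 1 with no filter, 2 with the GC correction and 0 to 4 without 1 library. The highest of these counts came without Low ERN2, control replicate 1 (4), without No ERN2, stress replicate 3 (4), and without High ERN2, stress replicate 1 (5, 7 and 4), and the cause was not tested. The counts over all genes moved with them, from 28 to 2743, from 1611 to 1901, and from 29 to 2568, 1512 to 3950 and 6 to 1286. In High against No ERN2 control cells, DESeq2 called 1609 of all 19937 genes, library totals 1185 of 14444 and the GC correction 2120. With thapsigargin in No ERN2 cells these settings called 2302 of 19837, 1633 of 14397 and 2839. No filter called 2173 of 19837 there and all 6 groups 1273 of 15023. In High against No ERN2 stressed cells, DESeq2 called 2312 of 19752, library totals 1665 of 14358 and the GC correction 2730. No filter called 2236 of 19752 there and all 6 groups 2641 of 15023.

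With the replicate block the count was 0 in High against No ERN2 control cells, 6 with thapsigargin in No ERN2 cells, 2 with thapsigargin in Low ERN2 cells and 1 in High against No ERN2 stressed cells. In Low against No ERN2 stressed cells it stayed at 0, also with the block and the GC correction together. In the other comparisons same-numbered libraries did not have r above 0.1 in every pair. Some pairs did, such as numbers 1 and 3 with thapsigargin in Low ERN2 cells (r = 0.50 and 0.44).

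Of 1168 values of single genes under an alternative, 48 had the opposite sign, none of them (0) for a change called in the first place. With DESeq2, RLE size factors and library totals the value of SRP14 between High and Low ERN2 control cells was 0.0015, 0.00075 and 0.010. Library totals gave -0.045 for SRP19 in the difference between responses at 100 ng/mL. They moved the median of all genes in that difference to -0.14 from 0.04. With High ERN2, stress replicate 1 alone the thapsigargin response in High ERN2 cells was -0.14 for SRP9, -0.12 for SRP54 and -0.21 for SRP72, SRP72 was -0.18 in High against No ERN2 stressed cells, and the difference between responses was -0.32 for SRP19 and -0.0099 for SRP72. With the GC correction the values were 0.15 for SRP14 and 0.059 for SRP54 in Low and 0.021 for SRP14 and 0.024 for SRP72 in High against No ERN2 control cells, -0.12 for SRP9 between High and Low, -0.065 for SRP54 and 0.052 for SRP68 with thapsigargin in Low and High ERN2 cells, and -0.27 for SRP19 in the difference at 100 ng/mL.

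Without 1 library the values that changed sign ran from -0.75 to 0.087 (SRP9) and -0.0078 to 0.12 (SRP19) in Low against No, from -0.71 to 0.13 (SRP9) and -0.036 to 0.19 (SRP54) in High against No, and from -0.012 to 0.10 (SRP9) and -0.082 to 0.018 (SRP14) in High against Low ERN2 control cells. With thapsigargin they ran from -0.0096 to 0.23 (SRP54) and -0.11 to 0.17 (SRPR) in Low and from -0.069 to 0.020 (SRP68) in High ERN2 cells. In Low against No ERN2 stressed cells they ran from -0.11 to 0.24 (SRP19), -0.021 to 0.26 (SRP54), -0.031 to 0.23 (SRP72), -0.026 to 0.31 (SRPR) and -0.047 to 0.34 (SRPRB), and in the differences for SRP19 from -0.19 to 0.17 at 10 and -0.055 to 0.29 at 100 ng/mL. The share of calls over all genes that were higher with thapsigargin in High ERN2 cells went from 89.7% to 54.9% with library totals, 36% with DESeq2, 35.4% with the GC correction and 24.8% with all 6 groups. The 8 genes had 558 or more counts in every library, so the spread between 3 libraries, and not counting error, set the size of the errors.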

Other observations

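The nascent chain factors NACA and BTF3, which sit on the ribosome near the exit of the new chain and limit SRP to signal sequences, were counted beside the SRP genes. BTF3 had 566 ± 20.7 CPM in No ERN2, control and 411 ± 11.5 in No ERN2, stress (mean ± SD, n = 3) and fell by 0.45 on the log2 scale with thapsigargin (SE 0.09, adjusted p = 0.0048, edgeR). In stressed cells it was 0.76 higher in High than in No ERN2 cells (SE 0.17, adjusted p = 0.0077). It had 494, 793 and 716 CPM in High ERN2, stress, highest in replicates 2 and 3, the libraries that stood apart from the others. Over all genes, 11.2% were called in the first of these comparisons and 10.5% in the second. For NACA the values were -0.24 (adjusted p = 0.176) and 0.24 (adjusted p = 0.226).

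The route for tail-anchored and other proteins that enter the ER without SRP had 8 genes with a row. Induced ERN2 alone called 0 of the 8 in High ERN2 cells with edgeR, against 8.33% of all genes, and 0 of the 8 and 4237 of 14444 genes had an unadjusted p under 0.05, with values from -0.08 for WRB to 0.32 for TMEM208. Thapsigargin in No ERN2 cells called 1 of the 8, against 11.2% of all genes. This was WRB, the membrane receptor subunit now named GET1, which went from 23.5 ± 1.74 to 14.4 ± 1.04 CPM and fell by 0.69 on the log2 scale (SE 0.13, adjusted p = 0.0026). The thapsigargin response of TMEM208, an ER membrane protein of a further SRP-independent route, differed between High and No ERN2 cells by -1.04 (SE 0.32, adjusted p = 0.0933).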
